A study of Danio rerio with 9 samples.

Results

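The 3 pools of unexposed control larvae in this zebrafish study were described here as a baseline transcriptome, together with the variation among them. They are the 0.1% DMSO libraries, 3 of the 9 libraries in the series, and they were chosen by their label alone. The other 6 libraries are 3 pools at 10 µg/L and 3 pools at 0.1 µg/L of perfluorononanoic acid (PFNA), a long-chain perfluorinated carboxylic acid. PFNA was given in 0.1% DMSO, so exposed and control larvae shared the solvent. Exposure began with fertilized embryos of AB × Tübingen parents and lasted 7 days, when whole larvae were collected. A biological replicate was the 14 to 15 larvae of a single beaker, so a library averages over individuals as well as over all tissues. Whether the beakers came from the same clutch is not given in the sources used here, and the spread among the pools may therefore be biological or technical. The study counts more RNA samples for library construction than the 9 libraries of the series. It does not say whether another control pool was among them.

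A zebrafish larva of this age has hatched, swims freely and hunts with image-forming eyes. Much of its mass is axial muscle under a keratin-rich skin, and its liver, exocrine pancreas and gut have just taken over from the yolk. The digestive organs secrete apolipoproteins, plasma proteins and digestive enzymes in large amounts, and lens fibre cells fill with crystallins. A bulk library adds all of these together, so fewer cells of a type and less RNA per cell cannot be told apart.

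The values are normalized counts, meaning reads of a gene divided by the size factor of its library. DMSO columns were read from the table that the control larvae share with the 10 µg/L larvae. Recovered reads were 17191934 to 19168248 per library at 10 µg/L PFNA and 14493071 to 23963715 in DMSO, with DMSO replicate 1 the shallowest and DMSO replicate 2 the deepest of the 6. The same 3 DMSO libraries also stand in the 0.1 µg/L table, and their reads were identical there for 100% of 19130 shared genes. DMSO replicate 3 carries the first sequencing index that all exposed pools carry, while DMSO replicates 1 and 2 each carry another; the part of the index in the results was not tested. Triplets of values below follow the order of DMSO replicates 1, 2 and 3.

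The most abundant transcripts of the control larvae were those of fast muscle, ribosomes and mitochondria. In the 10 µg/L table, 19731 genes are listed, and 146 of them held 50% of the mean summed value. Counted in each pool, that number was 114, 180 and 170 genes. The 10 most abundant genes of a pool held 16.1 ± 1.64% of its values (SD, n = 3 pools), the 100 most abundant 43.7 ± 3.53%, and the 1000 most abundant 72.0 ± 3.34%. DMSO replicate 1 was the most concentrated, with 47.8% of its values in 100 genes, against 41.5% and 41.9% in the other pools. These are shares of reads, and no gene length entered them, so a long transcript weighs more than a short one with as many copies.

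The leading gene was ENSDARG00000099970, listed in the file as CR383676.1 and given the symbol malat1 in the reference gene table. Mammalian malat1 is a long noncoding RNA retained in the nucleus. It had 535772, 347086 and 369311 normalized counts in the 10 µg/L pools, against 986192, 736027 and 432301 in the DMSO pools, where its share was 3.51 ± 0.942% (SD, n = 3) and the SD of that share was the largest of the 30 leading genes. actc1b, a striated muscle actin, was next at 728585, 441510.0 and 476117, or 2.71 ± 0.359%. The mitochondrial cytochrome oxidase gene mt-co1 followed at 1.62 ± 0.289%.

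Fast skeletal muscle genes filled 12 of the first 30 places and 17 of the first 100. The parvalbumins pvalb2 and pvalb1, calcium buffers of fast fibres, held 1.58 ± 0.205% and 1.15 ± 0.0935% of the values. The fast myosin heavy chain myhz1.1 (ENSDARG00000067990) held 1.03 ± 0.148%, and the fast light chains mylz3 and mylpfa 0.988 ± 0.116% and 0.968 ± 0.0726%. Tropomyosin (tpma), the muscle creatine kinases ckmb and ckma, the troponins tnnt3b and tnnc2 and the calcium pump atp2a1 were also among the first 30. All 47 fast muscle genes of the list together held 14.66 ± 1.104% (SD, n = 3), in which the pools had 15.7%, 13.5% and 14.8%. The 9 slow muscle markers held 0.123 ± 0.0103%, led by the slow myosin smyhc1 at 12132, 9365 and 9687 normalized counts. The fast list is longer and includes the striated muscle actin actc1b, so both sums depend on how genes were assigned. Heart markers held 0.0145 ± 0.000259%, led by myh7 at 2155, 1692 and 1187. This even sum did not mean even genes, since myl7 had 304, 124 and 340. Of the 7 heart genes with a mean of 50 or more, 3 differed 2-fold or more, or 42.9% beside 15.4% of all such genes.

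Genes of protein synthesis were the other large block. The 87 cytosolic ribosomal protein genes held 17.996%, 16.3% and 15.8% of the values in the DMSO pools, more than fast muscle in each pool, and 51 of them were among the 100 most abundant genes. rps2 (180687, 122875 and 125592) led them, with rplp0, rpsa, rpl3, rpl6 and rpl4 also in the first 30. The elongation factors eef1a1l1 (1.46 ± 0.146%) and eef2b (0.585 ± 0.0814%), which carry transfer RNA to the ribosome and move it along, ranked beside them. Thus 79 of the 100 most abundant genes were fast muscle, ribosomal protein, mitochondrially encoded or keratin genes. The 13 mitochondrially encoded genes, subunits of the respiratory chain and ATP synthase, held 6.53%, 4.73% and 4.63%.

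The remaining leaders were housekeeping and skin genes. The constitutive chaperones hspa8 and hsp90ab1 held 0.507 ± 0.0498% and 0.416 ± 0.0374%, and slc25a5, the mitochondrial carrier that exchanges ADP and ATP, 0.513 ± 0.0317%. Skin was marked by krt4 (103500.0, 78106 and 116922), krt5 (78482, 54297 and 69594) and krt91 (76008, 52636 and 58306), and the 18 keratin family genes held 1.88 ± 0.232% (SD, n = 3).

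**Figure D1:**
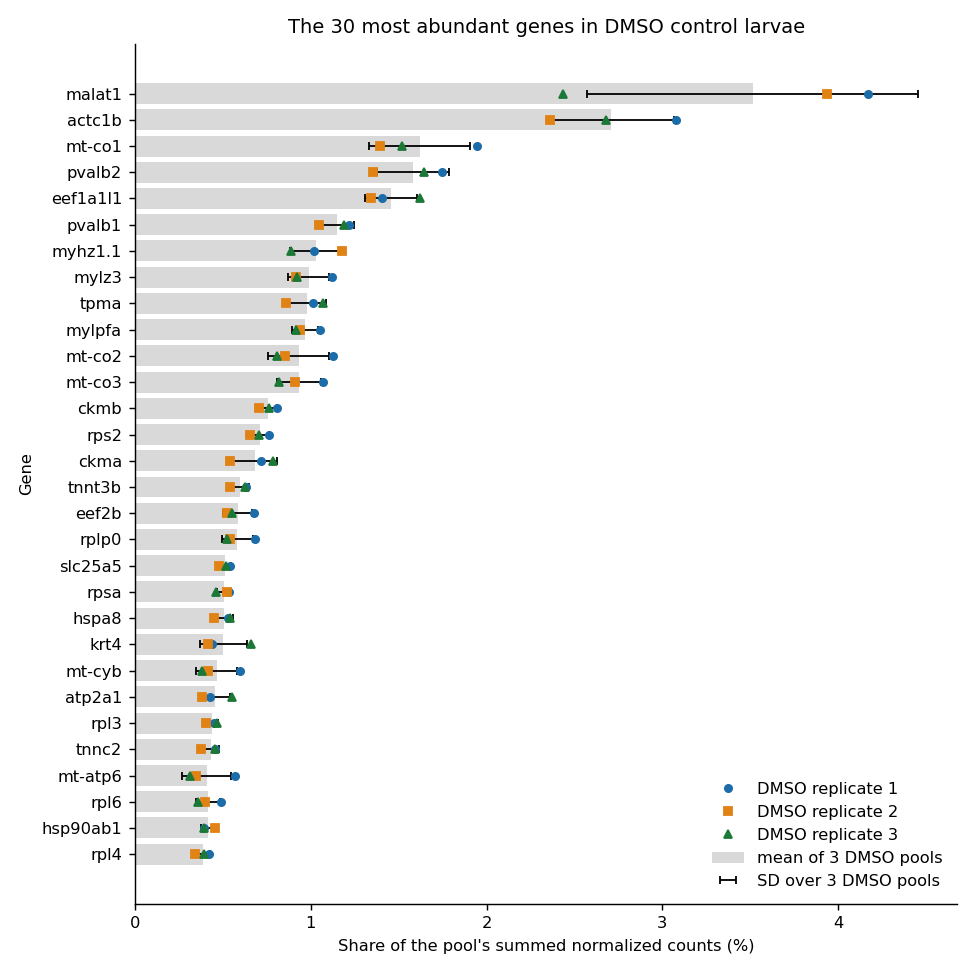
Share of each pool's summed normalized counts (%, x axis) for the 30 genes with the highest mean over the 3 DMSO pools (y axis). Bars are means, error bars the SD and points the 3 pools. malat1 leads at 3.51% with the widest spread in share, and 12 of the genes are fast muscle genes.

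The tissues that zebrafish larvae use to see, digest and coordinate movement were each marked by genes below these leaders. Photoreceptor markers held 0.811 ± 0.107% of the values (SD, n = 3), led by the ultraviolet cone opsin opn1sw1 at 32169, 25678 and 20616 normalized counts, the cone phosphodiesterase subunit pde6ha at 18783, 14701 and 11745 and rod opsin rho at 20315, 13767 and 7386. Neuron markers held 0.875 ± 0.166%, with the microtubule regulator stmn1b (11721, 12879 and 11034) and the RNA-binding protein elavl4 (14207, 12923 and 7757) at their head. Glial markers held 0.253 ± 0.0283%, led by the glutamate transporter slc1a2b (13512, 12145 and 8583). The lens list held 0.344 ± 0.0940%, with the beta crystallins crybb1l2 (18085, 12595 and 7995) and crybb1 (18747, 13163 and 5096) first. Its share in DMSO replicate 1 was 0.438%, against 0.249% in DMSO replicate 3. The lens list leaves out part of the crystallins. The 38 genes of the crystallin family held 0.702 ± 0.165%, with 0.873%, 0.691% and 0.543% in the pools.

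Liver markers held 0.679 ± 0.340% and exocrine pancreas markers 0.440 ± 0.189%, so their SD was large beside their mean. In the liver, apoa1b, the main protein of high-density lipoprotein, had 44886, 14191 and 42688 normalized counts, the secreted protease inhibitor fetub 40633, 9676 and 30836, and the liver fatty acid binding protein fabp10a 20736, 6346 and 12686. Trypsin (prss1) led the pancreas at 29619, 11525 and 22542. Intestine markers held 0.256 ± 0.142%, led by apoa1a (12444, 4845 and 9025), the chitinase chia.2 (6496, 2151 and 12289) and the enterocyte fatty acid binding protein fabp2 (6719.9, 2720.1 and 10613). In each of these 7 genes DMSO replicate 2 was the lowest pool.

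The listed markers of skeleton, blood and hormone cells held small shares of the values. Cartilage and notochord markers held 0.245 ± 0.0249%, led by the cartilage collagen col2a1a (12953, 13075 and 11678). Fibroblast and bone markers held 0.232 ± 0.0224%, led by col1a1b (9952, 7721 and 8008). Erythrocyte markers held 0.0312 ± 0.00706%, with the embryonic alpha globin hbae3 at 1943, 1059 and 1629. Of the 25 erythrocyte entries listed, only 13 had values, and reads were counted only where they mapped uniquely. The share therefore need not measure the RNA of blood. Pigment cell markers held 0.0561 ± 0.00523%, led by the melanosome gene pmela (3528, 2391 and 2006). Endocrine pancreas markers held 0.0188 ± 0.00142%, but most of that was the single gene neurod1 at 0.0131% (2885, 2777 and 2192). neurod1 is also a gene of neurons, so the share of this list cannot be read as islet RNA. The next gene, the somatostatin gene sst1.1, held 0.0011%. Insulin (ins) had 55.5, 24.2 and 91.0 normalized counts, 34, 31 and 107 reads. Vitellogenin, the yolk precursor of adult female liver, was near the lower limit. vtg1, the only vitellogenin gene of the list in the table, had 9.80, 18.7 and 11.1 normalized counts, from 6, 24 and 13 reads.

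The 3 control pools differed from each other in level as well as in share. Spread was taken as the SD over the pools of log2(normalized count + 1). It was taken for the 14391 genes with a mean of 50 or more over the DMSO pools, which held 99.3% of the values. The median SD was 0.17 over the 10 µg/L PFNA pools and 0.28 over the DMSO pools. The highest pool was at least 2-fold above the lowest for 471 genes (3.27%) at 10 µg/L and for 2210 genes (15.4%) in DMSO. A difference of 4-fold or more was found for 9 genes at 10 µg/L and for 298 genes (2.07%) in DMSO. The DMSO SD was the larger for 74.4% of the genes. These genes were picked by their DMSO mean alone. A gene raised to the limit by a single high DMSO pool entered, and a gene raised by a single high 10 µg/L pool need not. That choice can favour a wider DMSO spread in these counts and in the coefficients below, which rest on the same genes. The difference in spread between the groups was not tested. The biological coefficient of variation, which is the spread left after counting error, was estimated by edgeR at 0.142 for the 10 µg/L pools and 0.260 for the DMSO pools, and by DESeq2 at 0.156 for the 10 µg/L pools and 0.245 for the DMSO pools.

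The spread was wider than read counting alone gives. For a gene with the reads seen here, counting alone gives a median SD of 0.09 on the log2 scale, and the observed SD was 3.04 times the counting SD in the median gene. It was more than 2 times as large for 71.0% of the genes. Even the leading genes, whose counting SD is under 0.01, differed among the pools: the SD was 0.60 for malat1 and 0.39 for actc1b.

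**Figure D2:**
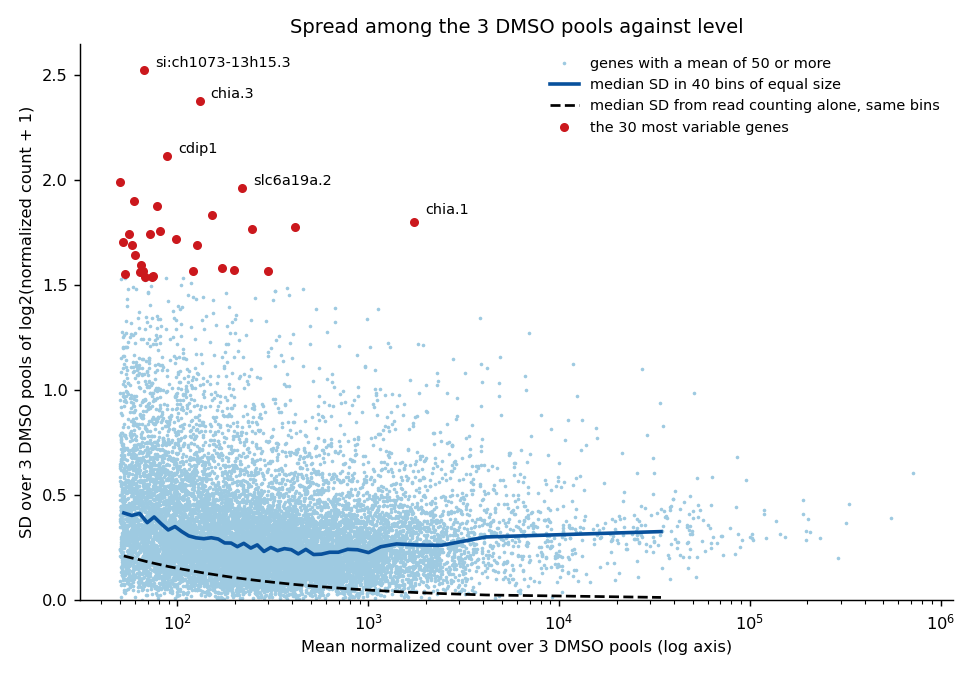
SD over the 3 DMSO pools of log2(normalized count + 1) (y axis) against the mean normalized count (x axis, log scale) for 14391 genes. The solid line is the median SD and the dashed line the SD from read counting alone, both in bins of genes. The 30 most variable genes (red) lie between 1.54 and 2.52, and chia.1 is the most abundant of them.

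With the size factors, DMSO replicate 3 stood farthest from the other pools most often. Its value was the farthest from the other 2 pools for 6069 genes (42.2%), against 4894 (34.01%) for DMSO replicate 1 and 3428 (23.8%) for DMSO replicate 2. With values scaled to the library total, DMSO replicate 1 was the farthest most often, for 6151 of 14491 genes (42.4%), against 4792 (33.1%) for DMSO replicate 3, so which pool stood apart depended on the scaling. Between DMSO replicates 1 and 2, 654 genes were 2-fold or more apart. Between DMSO replicates 2 and 3 there were 1149 such genes, and between DMSO replicates 1 and 3 there were 1557. Across genes, which are not independent replicates, Pearson's r of the log2 values was 0.970, 0.948 and 0.943 for these pairs. Among the 2210 genes that differed 2-fold, the order from low to high was most often replicates 1, 2, 3 (733 genes) or replicates 2, 1, 3 (584 genes), so that DMSO replicate 3 was highest for 59.6% of them. Over all 14391 genes the highest pool was DMSO replicate 1 for 38.4%, DMSO replicate 2 for 30.1% and DMSO replicate 3 for 31.5%, and the lowest was DMSO replicate 1 for 30.9%, DMSO replicate 2 for 25.7% and DMSO replicate 3 for 43.4%. Leaving out DMSO replicate 3 left 577 genes at 2-fold, leaving out DMSO replicate 1 left 1231, and leaving out DMSO replicate 2 left 1625. These counts repeat the pairs above with the mean taken over the remaining pools, and a fall from 2210 was built in.

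The 30 genes with the largest spread had an SD of 1.54 to 2.52 and a highest pool 7.19 to 39.5 times the lowest. Their mean levels were low, with a median of 76.3 normalized counts, and their lowest pool held as few as 5 reads. In 17 of them the order was replicates 2, 1, 3, in 12 it was replicates 1, 2, 3, and in a single gene, si:ch211-237h22.2, DMSO replicate 3 was lowest. DMSO replicate 3 was therefore the highest pool for 29 of the 30. Just inside the limit, TMEM38B had an SD of 1.54, and just outside it plp2, lct and shisa7a had 1.53 each.

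Of the 30 genes, 3 (chia.3, chia.1 and itih3b) were in the liver, intestine, pancreas or apolipoprotein lists, which hold 97 (0.674%) of all 14391 genes, and all 3 were lowest in DMSO replicate 2. The widest spread was that of si:ch1073-13h15.3 (ENSDARG00000099525), with 42.4, 3.90 and 154 normalized counts in the DMSO pools. Its lowest pool rested on 5 reads, with an exact 95% Poisson interval of 1.62 to 11.7 that covers counting error only, against 181 reads in DMSO replicate 3. The digestive chitinase chia.3 had 155, 10.1 and 227 normalized counts, and chia.1 of the same family 1420.4, 296 and 3506. Reads of such near-identical copies were counted only where they mapped uniquely, so their split among the copies is uncertain, which holds for the actc1, myhz1, prss59, crygm2d and chia genes. For chia.1 the pools had 870, 380 and 4121 reads, and its normalized counts differed 11.8-fold between DMSO replicates 3 and 2. The exact 95% Poisson intervals were 3996 to 4249 reads in DMSO replicate 3 and 343 to 420.2 in DMSO replicate 2. The gene was chosen for its spread, so these intervals describe counting error and are no test of that spread.

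The amino acid transporter gene slc6a19a.2, whose mammalian counterpart works in the brush border of the gut and kidney, had 71.8, 39.8 and 542, and the water channel aqp8a.2 had 103, 50.7 and 437. Meprin beta (mep1b), a brush border protease in mammals, had 157, 22.6 and 199. For mep1b DMSO replicates 1 and 3 were near each other and DMSO replicate 2 apart, whereas for slc6a19a.2 and aqp8a.2 DMSO replicate 3 was the pool apart.

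Also lowest in DMSO replicate 2 were complement c3b.1 (169.8, 44.5 and 522), the plasma protein itih3b (68.6, 50.7 and 393), the bile salt exporter gene abcb11b (52.2, 13.3 and 127), the sulfotransferase sult3st3 (31.0, 6.24 and 113) and the cytochrome P450 cyp2p8 (70.203, 29.6 and 263). In each of them DMSO replicate 3 had several times the value of DMSO replicate 2. ugp2a, which makes the UDP-glucose used for glycogen, had 32.7, 26.5 and 236, and tmem86b 199, 70.206 and 624. The order was shared by ENSDARG00000091099, ENSDARG00000100107, si:ch211-170d8.5 and zgc:123321, of which the files name no function.

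The 12 genes lowest in DMSO replicate 1 were in none of the digestive lists. cdip1, a membrane protein of cell death signalling in mammals, had 9.80, 56.9 and 198 normalized counts, from 6, 73 and 233 reads. fam102bb had 8.16, 46.0 and 122, and zc3h7b, a zinc finger protein, 11.4, 63.2 and 161. dnm2a, a dynamin that pinches off membrane vesicles, had 13.1, 108 and 121, so that DMSO replicates 2 and 3 were close and DMSO replicate 1 stood alone. The same order was seen for the actin-binding protein gene marcksa (9.80, 39.0 and 119), the cofilin phosphatase ssh1b (9.80, 32.0 and 113) and the integrin itgb1a (13.1, 25.7 and 135). So did the kinase nlk2 (17.96, 44.5 and 157), the ubiquitin ligase subunit fbxo33 (16.3, 35.1 and 145), the transporter slc6a16a (17.96, 46.0 and 158), the ion channel gene TMEM38B (16.3, 42.1 and 144) and si:ch211-194c3.5 (24.5, 117 and 316). DMSO replicate 1 had the fewest reads, and for these 12 genes its values came from 5 to 15 reads each.

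Set beside the 10 µg/L pools of the same table, most of the 30 genes varied there within or across the DMSO range. All 3 pools at 10 µg/L lay inside the range of the DMSO pools for 12 of the 30 genes, above it for 4 and below it for 0. Of all 14391 genes, 29.8% lay inside, 8.34% above and 9.66% below. The 30 genes were chosen for a wide spread among the DMSO pools, which favours a place inside. Of the 2210 genes that differed 2-fold, 47.6% lay inside, 9.91% above and 2.44% below. The 4 genes above the range were zc3h7b, dnm2a, marcksa and nlk2, all of them lowest in DMSO replicate 1. zc3h7b had 263, 293 and 220.5 normalized counts at 10 µg/L PFNA, against 11.4, 63.2 and 161 in DMSO. nlk2 had 189.8, 289.6 and 189 at 10 µg/L, against 17.96, 44.5 and 157 in DMSO. In both, DMSO replicate 3 was the closest control pool, which follows from how these genes were picked: it was their highest DMSO pool, and all exposed pools lay above. Of the 733 genes that differed 2-fold in the order of replicates 1, 2, 3, 185 (25.2%) had all 10 µg/L pools above all DMSO pools, and 1 gene had them below. Of all 2576 genes in that order, at 2-fold or not, 18.6% had them above and 3.38% below. The 10 µg/L pools were not uniform either: chia.1 had 6486, 1335 and 1813 at 10 µg/L, against 1420.4, 296 and 3506 in DMSO, with 10 µg/L replicate 1 the highest of the 6 libraries.

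**Figure D3:**
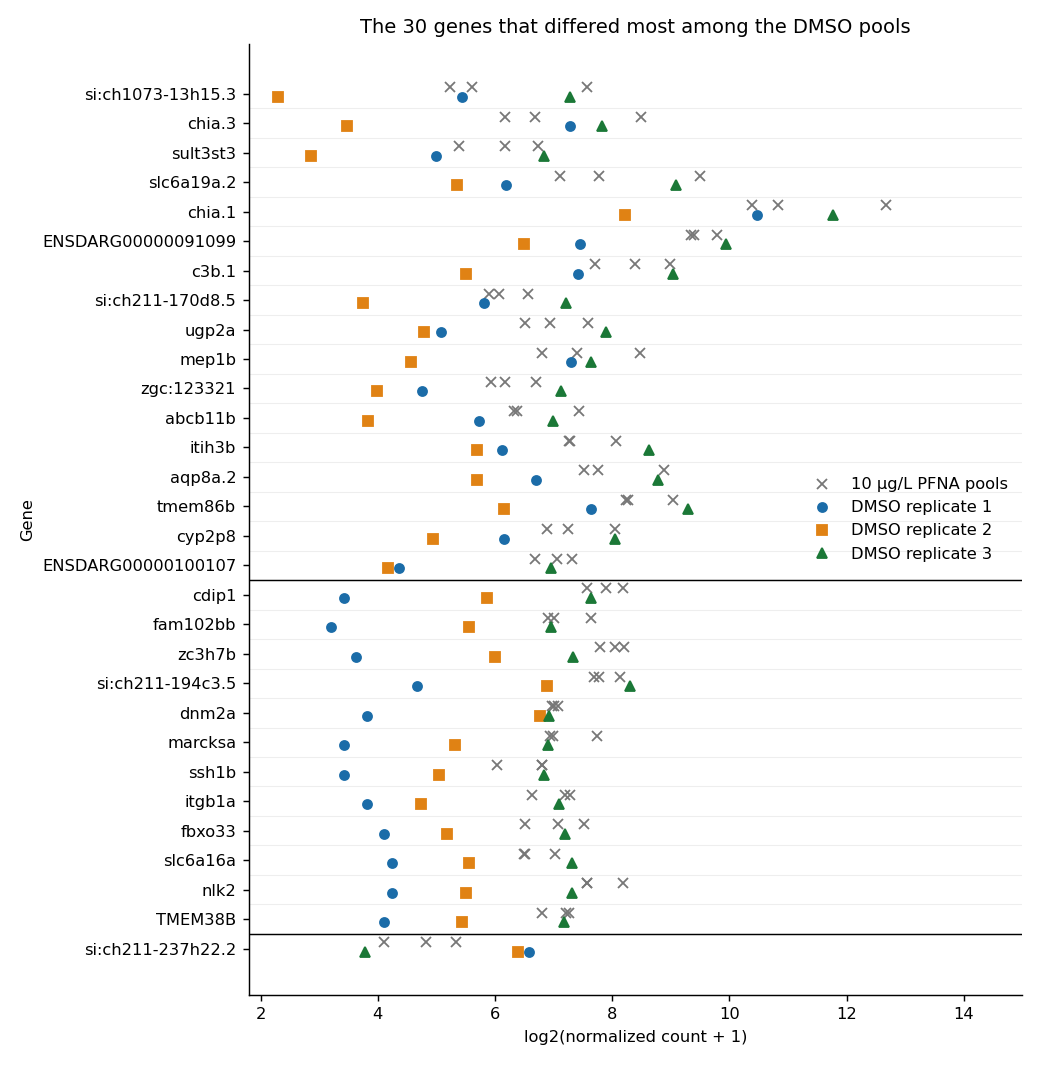
log2(normalized count + 1) (x axis) of the 30 most variable genes (y axis) in the 3 pools at 10 µg/L PFNA (crosses) and the 3 DMSO pools (coloured symbols). Lines separate 17 genes lowest in DMSO replicate 2, 12 genes lowest in DMSO replicate 1 and 1 gene lowest in DMSO replicate 3. DMSO replicate 3 is the highest DMSO pool for 29 of them.

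In some tissue lists most genes differed among the control pools in the same order, and in others, such as glia, cartilage and claudins, they did not. Each list is described by the median deviation of its genes from their own mean over the 3 pools, on the log2 scale. Over all 14391 genes these medians were 0.05, 0.03 and -0.05. With values scaled to the library total in place of size factors they were -0.20, 0.12 and 0.12, so that every list moves down in DMSO replicate 1 and up in the other pools under that scaling. The lists overlap in part: the lens list is mostly crystallins and the apolipoprotein genes are shared between liver and intestine.

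Digestive organs showed the widest separation. Liver genes had median deviations of 0.22, -1.12 and 0.77 in the DMSO pools. DMSO replicate 2 was lowest for 43 of 44 liver genes, where it was lowest for 25.7% of all genes, and DMSO replicate 3 was highest for 38, against 31.5% of all genes. The exception was rbp4, the retinol carrier of plasma, at 6899, 7067 and 9007, which was named after its values were seen. Of the 44 genes, 39 differed 2-fold or more, or 88.6% beside 15.4% of all genes. The iron carrier transferrin (tfa) had 3355, 1115 and 7108 normalized counts, the protease inhibitor a2ml 256, 67.9 and 408, and complement c3a.3 259.6, 85.0 and 533. The order of DMSO replicates 1 and 3 was not uniform, since fabp10a and fetub were highest in DMSO replicate 1.

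Exocrine pancreas was low in DMSO replicate 2 without exception, with medians of 0.47, -0.93 and 0.47. All 21 digestive enzyme genes were lowest there, beside 25.7% of all genes, and all 21 differed 2-fold or more, beside 15.4% of all genes. Amylase (amy2a) had 1567, 651 and 2745 normalized counts, elastase ela2 2447, 898 and 3527, the bile salt activated lipase cel.2 331, 85.0 and 311 and the protease c6ast4 1544, 451 and 1467. All 3 pools at 10 µg/L lay within the DMSO range for 17 of the 21 genes, beside 47.6% of the 2210 genes that differed 2-fold.

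Intestine genes had medians of 0.21, -1.05 and 0.96. DMSO replicate 2 was lowest for 26 of 27, beside 25.7% of all genes, and DMSO replicate 3 was highest for 24, beside 31.5% of all genes. The lactase gene lct had 63.7, 20.3 and 177 and tm4sf5, a tetraspanin-like membrane protein, 93.1, 28.1 and 234. fabp6, the bile acid binding protein of the distal gut, went the other way at 8512, 6148 and 5046 and was likewise named after its values were seen. The 17 apolipoprotein genes above the minimum were all lowest in DMSO replicate 2, and 13 of them differed 2-fold or more, or 76.5% beside 15.4% of all genes. apoa4b.2 had 2813, 957 and 4525, apoa2 12062, 4208 and 19198 and apom 1131, 395 and 1724. Of the 97 genes in the liver, intestine, pancreas and apolipoprotein lists combined, 86 differed 2-fold or more. They were 34 of the 298 genes that differed 4-fold.

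These lists kept their lowest pool under all 4 other scalings, which were the size factors of the 0.1 µg/L table, scaling to the library total, edgeR's TMM and quantile normalization, although the medians in DMSO replicate 1 turned to -0.03 for liver and -0.04 for intestine with scaling to the library total. In shares of the summed values, the liver list had 1.00%, 0.727% and 0.824% in the 10 µg/L pools, against 0.722%, 0.320% and 0.994% in the DMSO pools. The pancreas list had 0.255%, 0.445% and 0.370% at 10 µg/L, against 0.470%, 0.238% and 0.613% in DMSO. For both, the pools at 10 µg/L overlapped those in DMSO, and DMSO replicate 2 had the lowest share of the 6 libraries.

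**Figure D4:**
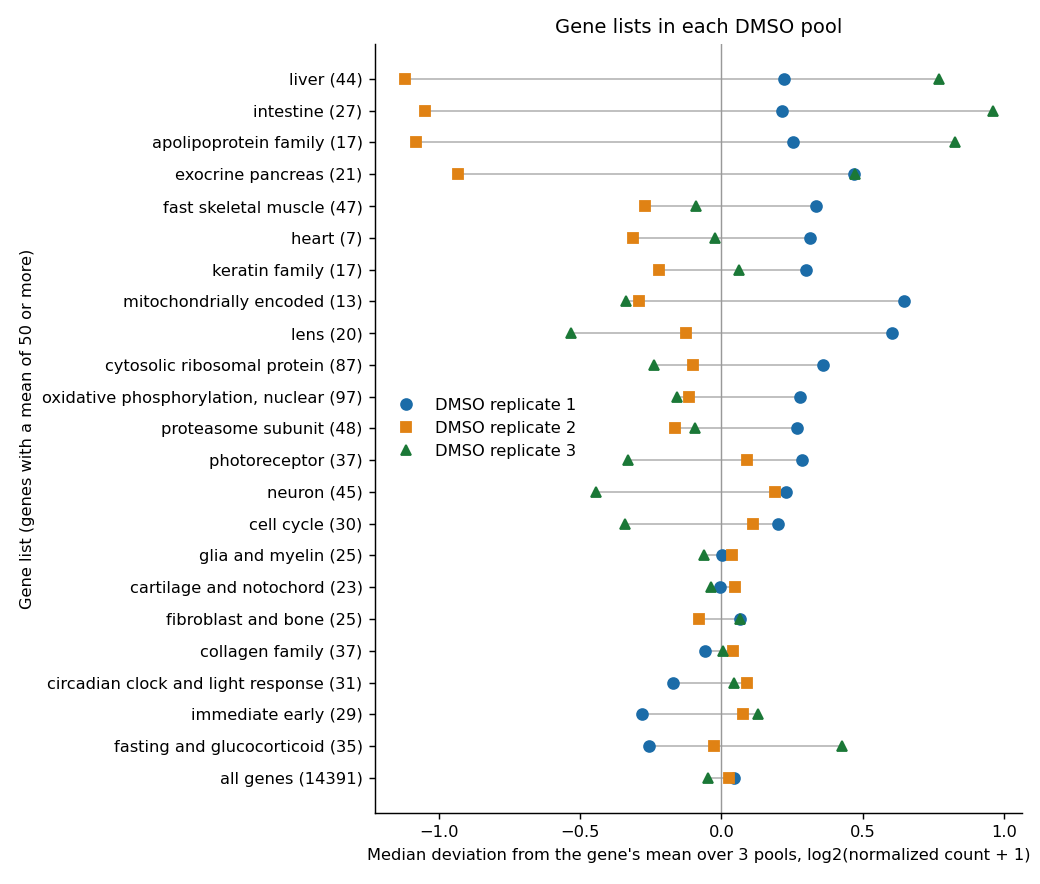
Median over the genes of a list (y axis, number of genes in brackets) of the deviation of log2(normalized count + 1) from the gene's mean over the 3 DMSO pools (x axis), for each pool. Liver lies at -1.12 in DMSO replicate 2 and at 0.77 in DMSO replicate 3, lens at 0.60 in DMSO replicate 1, and the medians of all genes within 0.05 of 0.

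Lens and mitochondrial genes were highest in DMSO replicate 1. The lens list had medians of 0.60, -0.13 and -0.53, and all 20 genes were highest in DMSO replicate 1, where 38.4% of all genes were. Of these, 13 differed 2-fold or more, or 65% beside 15.4% of all genes. crybb1 had 18747, 13163 and 5096 normalized counts, cryba4 11502, 5885 and 3939 and the low-level cryba1a 94.7, 61.6 and 24.7. The crystallin family at large behaved alike, with 36 of 37 genes highest in DMSO replicate 1 and 19 at 2-fold or more. All 13 mitochondrially encoded genes were also highest there, with medians of 0.65, -0.29 and -0.34. mt-nd6 had 43297, 28995 and 14728 and mt-atp6 134637, 64592 and 56000.2. Both lists kept DMSO replicate 1 as the highest pool under all 4 other scalings.

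Genes of protein synthesis and respiration shared this direction by smaller amounts. Of the 87 ribosomal protein genes, 84 were highest in DMSO replicate 1, where 38.4% of all genes were. Only 2 differed 2-fold or more, or 2.30% beside 15.4% of all genes. The medians were 0.36, -0.10 and -0.24. With quantile normalization the medians were 0.03, 0.04 and -0.03, so this order did not hold under that scaling. All 3 pools at 10 µg/L were below all DMSO pools for 66 of the 87 genes, beside 9.66% of all genes, and the list held 13.4%, 13.5% and 13.5% of the values at 10 µg/L, against 17.996%, 16.3% and 15.8% in DMSO. The nuclear genes of oxidative phosphorylation had 88 of 97 members highest in DMSO replicate 1 and medians of 0.28, -0.12 and -0.16, which became 0.03, -0.03 and 0.01 with scaling to the library total. Proteasome subunits had 42 of 48 members highest there, at 0.27, -0.16 and -0.09, or 0.02, -0.08 and 0.07 with scaling to the library total. DMSO replicate 1 was also the pool with the most of its values in 100 genes. Fast muscle genes had medians of 0.33, -0.27 and -0.09. Of the 47 genes, 38 were highest in DMSO replicate 1 and 32 lowest in DMSO replicate 2, where 25.7% of all genes were lowest. Only the low place of DMSO replicate 2 held with quantile normalization, at 0.04, -0.11 and 0.06. The giant sarcomere protein ttn.1 was among the 13 genes lowest in DMSO replicate 3, with 12710.0, 11569.9 and 5562.

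Neuron, photoreceptor and cell cycle markers were mostly lowest in DMSO replicate 3. Neuron markers had medians of 0.23, 0.19 and -0.44, with 38 of 45 genes lowest in DMSO replicate 3, against 43.4% of all genes. Of the 45 genes, 15 differed 2-fold or more, or 33.3% beside 15.4% of all genes. The microtubule protein map1b had 1662, 1789 and 532 normalized counts, and the neurofilament genes nefmb and nefla 1974, 2013 and 649 and 569.8, 468 and 189. Synaptophysin sypa ran against them at 268, 462 and 914. A second list, of neuronal and adhesion genes, did not share the low place of DMSO replicate 3. Of its 37 genes, 15 were lowest there and 21 were lowest in DMSO replicate 1. All 3 pools at 10 µg/L lay within the DMSO range for 31 of the 45 genes, beside 29.8% of all genes. Among them, map1b had 667, 686 and 678 at 10 µg/L, against 1662, 1789 and 532 in DMSO. In map1b, nefmb and nefla the exposed pools were close to DMSO replicate 3 and apart from the other controls.

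Photoreceptor genes were lowest in DMSO replicate 3 for 28 of 37 members, beside 43.4% of all genes, at medians of 0.28, 0.09 and -0.33. Rod opsin rho had 20315, 13767 and 7386, the cone channel subunit cnga3a 664, 449 and 268 and blue cone opsin opn1sw2 9337, 6149 and 4142. Only 3 of the 37 genes differed 2-fold or more, or 8.11% beside 15.4% of all genes. Cell cycle genes were lowest in DMSO replicate 3 for 28 of 30 members, at medians of 0.20, 0.11 and -0.34, among them the DNA ligase lig1 at 952, 1011 and 438. For neurons, photoreceptors and the cell cycle, DMSO replicate 3 was the lowest pool under all 4 other scalings. Glial markers did not follow neurons: 0 of 25 differed 2-fold, with medians of 0.00, 0.04 and -0.06. Cartilage and notochord (-0.01, 0.05 and -0.04) and collagens (-0.06, 0.04 and 0.01) were as flat, with 1 of 23 and 2 of 37 genes at 2-fold or more. Among them sox9a, a regulator of cartilage, stood apart at 26.1, 30.4 and 93.6.

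Transcripts that the study also measured by real-time PCR differed widely in their spread. Of 28 such genes above the minimum, 5 differed 2-fold or more, or 17.9% beside 15.4% of all genes. The tau gene mapta was the most variable, with 489, 809 and 540.4 normalized counts at 10 µg/L, against 70.203, 112 and 349.6 in DMSO. Growth-associated gap43, a protein of growing axons, had 3665, 3191 and 1419.7, the second tau gene maptb 2214, 1563 and 979, the neuronal RNA-binding protein elavl3 9143, 7177 and 4404 and the alpha tubulin tuba1a 4199, 2968 and 2074. Each of these 4 genes was lowest in DMSO replicate 3. The elongase elovl6 had 896, 938 and 526 and the heme oxygenase hmox1a 91.4, 91.3 and 100.4. gfap, the intermediate filament of astroglia, had 3603, 3514 and 3696, the growth factor manf 101, 108 and 101, and superoxide dismutase sod2 1272, 1137 and 1119. For manf and hmox1a the SDs of 0.05 and 0.08 were under a counting SD of 0.15.

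The reference genes of that assay were beta-actin and rps18. With the size factors, the actin gene actb1 was steady at 10672, 10188 and 10240.2 (SD 0.04 on the log2 scale). By contrast, actb2 had 87727, 58571 and 64586 (SD 0.30) and rps18 35681, 29380.3 and 25010.1 (SD 0.26). As shares of the summed values, actb1 had 0.0451%, 0.0545% and 0.0577%. Those of actb2 were 0.371%, 0.313% and 0.364% and those of rps18 0.151%, 0.157% and 0.141%, so this ranking depended on the scaling. Of 20 common reference genes above the minimum, 16 were highest in DMSO replicate 1, beside 38.4% of all genes. A difference of 2-fold or more was found for 3, or 15% beside 15.4% of all genes. They were ubc at 24651, 15574 and 11406, ppiab at 10723, 7320.1 and 5295 and tuba1a. The median deviations of the 20 genes were 0.26, -0.04 and -0.17, but 0.01, 0.05 and -0.01 with scaling to the library total. gapdh was just under 2-fold at 51836, 32111 and 62323. The ubiquitin ligase rnf4 (155, 159.9 and 157) and the TATA-binding protein tbp (199, 195 and 179) were steadier with the size factors. Their SDs of 0.02 and 0.08 were under the counting SDs of 0.12 and 0.11. Their steadiness is therefore at the edge of what the depth can show.

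Among genes with a mean of 500 or more, the 10 steadiest had an SD of 0.01 with the size factors. They were emc7, a subunit of the membrane protein insertion complex, with 792, 798 and 801 normalized counts, then si:dkey-13i19.8, the phosphatase ctdspla (1079, 1079 and 1091), dnajc16l, gamma-synuclein sncga (4602, 4577 and 4644), the small GTPase rhoaa (2089.8, 2068 and 2059), kifap3a, bnip3, matn4 and lrpprc. Their highest pool was 1.01 to 1.02 times the lowest. The spread of these genes was under the counting SD, which was 0.05 for emc7 and 0.02 for sncga, so they were chosen at the edge of what the depth can show and need not be the steadiest in other pools. At 10 µg/L, rhoaa had 2021, 2287 and 2104, against 2089.8, 2068 and 2059 in DMSO.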

How the data were processed

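Whole larvae were sequenced as poly-A RNA by paired-end reads. The authors trimmed reads with Trimmomatic 0.36, aligned them to GRCz10 with STAR 2.5.2b and counted unique reads in exons with featureCounts of Subread 1.5.2. The libraries were directional, and the methods state strand-specific counting only for libraries that are. The deposited values are a signal, the read count divided by a DESeq2 size factor that the authors fitted in each of 2 tables. The deposited log2 fold change and p-value columns hold the authors' own comparisons and were not used.

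Reads were recovered from the step of each library, and 100% of values were whole within 0.05. Spread is the SD of log2(value + 1) over the 3 pools at a mean of 50 or more, and edgeR 4.0.16 and DESeq2 1.42.0 gave dispersions of the recovered reads. The analysis used python 3.11.15 and R 4.3.3 and was tested on simulated data. Intervals of read counts are exact Poisson intervals of 95% and cover counting error only. No test between groups was run.

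Named were the 30 genes of highest mean, up to 3 leaders of each list, the 30 genes of largest SD with the 3 just outside, the 10 steadiest genes with a mean of 500 or more, the transcripts of the real-time PCR and common reference genes, and up to 4 of the most variable members of a list. The members and lists were chosen with earlier results of these data known. Ribosomal protein, keratin and apolipoprotein genes were matched by symbol, and rps6k, krtcap, apobec and apoo genes that the patterns had caught were dropped after values were seen. Symbols turned into dates were restored for 18 genes, 641 clone names were given the symbol of the reference gene table, and 648 identifiers have no symbol. Alternatives were other pseudocounts, lower limits and scalings and leaving out each pool, and the deviations of lists and the farthest pool under other scalings were added after seeing the data.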

Additional observations from a re-analysis of the deposited data

How the results depend on the processing

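The number of genes that held 50% of the values was 146, and it was 165 without the mitochondrially encoded genes and 135 to 176 when 1 pool was left out. The spread among the pools depended on the lower limit and on which pools entered. The median SD was 0.28 with a minimum mean of 50 and 0.32 with no minimum, and 0.19 to 0.28 when 1 pool was left out. The number of genes that differed 2-fold or more was 2210, and it was 4790 with a minimum mean of 10, 795 with a minimum of 200 and 5147 with none. It was 577 to 1625 when 1 pool was left out, with 577 without DMSO replicate 3, 1231 without DMSO replicate 1 and 1625 without DMSO replicate 2. A gene's range over 2 pools is never wider than over 3. A fall was therefore built in, apart from genes that crossed the limit, and the counts compare only the pairs of pools. DMSO replicate 3 was the farthest pool for 6069 genes, and for 3698 of the fewer genes with a minimum of 200. With scaling to the library total it was farthest for 4792 genes (33.1%) and DMSO replicate 1 for 6151 (42.4%), while the other 3 scalings kept DMSO replicate 3 first, at 41.9% to 43.1%. Of the 30 most variable genes, 1 was shared with the 30 of a minimum of 10, 5 with those of a minimum of 200 and 1 with those of no minimum. Leaving out DMSO replicate 1 left 16 in common, DMSO replicate 2 13 and DMSO replicate 3 5, so the names in that group rest on the limit of 50 and on all 3 pools. Under other pseudocounts and scalings 21 to 29 of the 30 were shared. For 81 of 297 named genes the SD moved under some setting, by more than 1.5 times in 98 of 1485 recomputations.

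The values per coding length were not computed, since no lengths were at hand. No paired analysis was possible because the description covers a single group with no test. Genes with the lowest pool at 5 to 15 reads are limited by counting error. The spread was not tested against that of the exposed pools, and neither the clutch nor the sequencing index of a pool can be told apart from the pool itself.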

Other observations

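Stress and fasting genes, many of them targets of the glucocorticoid receptor in vertebrates, were highest in DMSO replicate 3 for 26 of 35 genes, where 31.5% of all genes were. Their median deviations were -0.26, -0.03 and 0.43 in DMSO replicates 1, 2 and 3, and 15 of the 35 differed 2-fold or more, or 42.9% beside 15.4% of all genes. pck1, which controls glucose synthesis, had 4567, 2728 and 3751 normalized counts at 10 µg/L PFNA, against 2127, 2300.4 and 6018 in DMSO. The glucocorticoid-induced transcription factor klf9 had 181, 242 and 694 in the DMSO pools and cyp7a1, the rate-limiting enzyme of bile acid synthesis, 108, 78.8 and 417. The glucose-6-phosphatase gene g6pca.1, which lets glucose leave the liver, had 66.9, 28.9 and 206, and both it and cyp7a1 had the order of pools seen in most liver genes.

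Immediate early genes, which are transcribed within minutes of a stimulus, were lowest in DMSO replicate 1 for 22 of 29 genes, where 30.9% of all genes were. Their medians were -0.28, 0.08 and 0.13, and dusp1, a phosphatase that ends kinase signalling, had 727, 998 and 1786. Circadian clock genes were lowest in DMSO replicate 1 for 20 of 31, with medians of -0.17, 0.09 and 0.04. tefb, a clock output factor, had 1019, 1495 and 968 at 10 µg/L, against 132, 312 and 771 in DMSO, so that all exposed pools lay above all control pools. The repressor nfil3-6 had 297, 541 and 759 in the DMSO pools. All 3 lists kept DMSO replicate 1 as the lowest pool under scaling to the library total, TMM and quantile normalization.

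A list of neuronal and cell adhesion genes was named for long genes, but their lengths were not measured here. It was chosen with earlier results of these data known. Of its 37 genes, 21 were lowest in DMSO replicate 1, where 30.9% of all genes were. The median deviations were -0.18, 0.13 and 0.02 in DMSO replicates 1, 2 and 3, unlike those of the neuron markers. A difference of 2-fold or more was found for 13, or 35.1% beside 15.4% of all genes. The adhesion molecule l1cama had 261, 312 and 261 at 10 µg/L, against 42.4, 80.3 and 181 in DMSO, and the kinesin kif1ab 483, 698 and 423 at 10 µg/L, against 66.9, 119 and 262 in DMSO. For 12 of the 37 genes all 10 µg/L pools were above all DMSO pools, beside 8.34% of all genes.

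Hormone and blood lists held small shares of the values, with a mean of 0.0121% for pituitary and hypothalamus and 0.0554% for myeloid markers. Peptide hormone genes of pituitary and hypothalamus were lowest in DMSO replicate 3 for 9 of 11, where 43.4% of all genes were. Among them oxytocin (oxt) had 259.6, 190.3 and 111 normalized counts. Myeloid markers were lowest in DMSO replicate 2 for 10 of 12, where 25.7% of all genes were. They were led by lgals2b (7681, 3850 and 5575) and cpa5 (5262, 1655 and 4760). These genes held 0.0282% and 0.0193% of the values, most of the myeloid share, while lysozyme held 0.00217%. Lysozyme (lyz) had 416, 267 and 591, and the chemotactic factor lect2l, which liver also makes, 60.4, 21.1 and 140.4. Most digestive genes were also lowest in DMSO replicate 2, and the part of those organs in this list was not tested. Heat shock genes were even in sum, with shares of 1.03%, 1.04% and 1.05%. Most of that was hspa8 (0.530%, 0.450% and 0.541%) and hsp90ab1 (0.396%, 0.459% and 0.392%), which differed in opposite directions in DMSO replicate 2. The median SD of the 34 genes was 0.26, beside 0.28 for all genes, and 2 differed 2-fold or more, or 5.88% beside 15.4%.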
